A study of Mus musculus with 7 samples.

Results

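The 40 genes described here are interferon-stimulated genes and their relatives, taken by symbol from the 57010 gene identifiers of an adipocyte RNA-Seq count table. They were selected by a list of names, without a threshold on measured values, but the list was chosen with earlier results of these data known. The genes fall into 4 classes: 23 genes known mainly as targets of type I interferon, 4 interferon regulatory factors, 8 interferon gamma-induced GTPases and 5 genes of the Ifi200 (p200) cluster. The libraries came from mature white adipocytes that collagenase digestion had freed from perigonadal fat of male mice, 3 FFA2 fl/fl controls and 4 Adipoq-F2-KO mice, all fed standard chow. Their age is labelled as 20 weeks, whereas the timeline of the study's chow-fed cohort runs to a later age. Both genotypes carried floxed alleles of FFA2 (gene Ffar2, the short-chain fatty acid receptor). The study housed both genotypes together from birth, up to an age below 20 weeks. Only the Adipoq-F2-KO mice carried Cre under the adiponectin promoter, which is active in adipocytes. The comparison asks which baseline transcripts of adipocyte preparations differ when adipocytes lack FFA2, and here it is read for the interferon programme.

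Interferons are secreted signals that bind receptors on the cell surface and act through JAK kinases and STAT factors. Type I interferons act through a complex with IRF9 that binds interferon-stimulated response elements (ISREs) in promoters, and interferon gamma acts through gamma-activated sites (GAS) and raises IRF1. The induced genes include antiviral effectors such as the Ifit, Oas and Mx families, immunity-related and guanylate-binding GTPases that act on membranes around intracellular pathogens, and the Ifi200 proteins, nuclear and cytosolic proteins that share a DNA-binding HIN domain and often a pyrin domain. In fat, these genes are expressed by resident macrophages and vessel cells as well as by adipocytes, so a bulk level does not say which cell made the transcript.

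The promoter sequences show what the classes share apart from their expression. RefSeq windows of GRCm38.p6 from 250 bases before to 50 bases after an annotated start were found for 32 of the 40 members and searched on both strands for an ISRE core, written as GAAA, any 2 bases, then GAAA, and for a GAS core, TTCNNNGAA. The ISRE core occurred in 3.44% and the GAS core in 8.3% of 32851 windows of that length in the mouse genome. The ISRE core was present in 10 of 17 type I genes with a window, in 6 of 7 GTPases, in 4 of 4 Ifi200 genes and in 0 of 4 interferon regulatory factors, and the GAS core in 5, 3, 0 and 2 of them. The remaining Ifi200 gene, Ifi204, had no window and was not searched. A match describes these letters alone and does not show that a factor binds there. The 150 bases before the start are printed for Ifi205, Ifi207 and Ifi211, whose transcripts are described first, and for Isg15 and Gbp2 as members of the other inducible classes. For Ifi203, whose matching start lies downstream of another start, 30 bases around the match are given. Each runs 5′ to 3′ on the gene's strand with ISRE matches on either strand in capitals.
Ifi205 (chr1:174031756-174031905, minus strand): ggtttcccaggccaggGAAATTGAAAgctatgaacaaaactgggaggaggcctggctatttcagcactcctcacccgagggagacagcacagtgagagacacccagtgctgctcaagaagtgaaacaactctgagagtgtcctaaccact
Ifi207 (chr1:173741810-173741959, minus strand): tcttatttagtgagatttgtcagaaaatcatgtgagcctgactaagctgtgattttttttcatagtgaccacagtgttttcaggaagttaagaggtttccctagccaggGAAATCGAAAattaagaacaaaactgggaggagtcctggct
Ifi211 (chr1:173913047-173913196, minus strand): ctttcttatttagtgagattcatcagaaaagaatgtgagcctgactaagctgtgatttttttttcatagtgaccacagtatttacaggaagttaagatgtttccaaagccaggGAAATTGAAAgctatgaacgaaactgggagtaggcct
Ifi203 (chr1:173942513-173942542, minus strand): attttaagagctgggGAAATCGAAAgctat
Isg15 (chr4:156200819-156200968, minus strand): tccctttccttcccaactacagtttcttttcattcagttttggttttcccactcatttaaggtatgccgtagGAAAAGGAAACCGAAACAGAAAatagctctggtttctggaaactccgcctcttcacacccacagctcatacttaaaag
Gbp2 (chr3:142620513-142620662, plus strand): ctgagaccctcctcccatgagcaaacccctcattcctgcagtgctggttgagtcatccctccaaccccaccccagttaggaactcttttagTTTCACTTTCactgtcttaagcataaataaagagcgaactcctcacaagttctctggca
In Ifi203, Ifi207 and Ifi211 the match began 35, 41 and 37 bases before the start, and in Ifi205 134 bases before it, with another match 24 bases into the transcript. The 9 bases after the match were gctatgaac in Ifi203, in Ifi205 before the start and in Ifi211, and attaagaac in Ifi207. The Isg15 promoter held 3 overlapping matches, which began 78, 72 and 66 bases before the start, and that of Gbp2 held 1 on the opposite strand, from base -59.

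Total counts lay between 30478997 and 39992605 per library. Ffar2 was counted at 37.5, 33.9 and 32.04 CPM (counts scaled to library size, with edgeR's TMM factors) in FFA2 fl/fl libraries 1, 2 and 3 and at 1.68, 1.15, 1.33 and 2.58 CPM in Adipoq-F2-KO libraries 1 to 4, so the level matched the label in each library (log2 fold change -4.36, SE 0.223). Markers of adipocytes dominated, with a summed level of 48270 to 53112 CPM over 10 genes in FFA2 fl/fl and 35236 to 47195 CPM in Adipoq-F2-KO libraries. Adipoq-F2-KO library 4 had the lowest adipocyte markers, the highest endothelial markers (2316 CPM against 1027 to 1623 CPM in the other libraries) and the largest mitochondrial share. That share separated the genotypes, at 4.41% to 5.77% of counts in FFA2 fl/fl and 6.61% to 10.3% in Adipoq-F2-KO libraries, and its part in the differences described here was not tested. Germ cell transcripts were highest in Adipoq-F2-KO library 2, with Prm2, a sperm protamine, at 54.1 CPM, and next in library 3, at 5.31 CPM, which also held 327 counts of the epididymal gene Lcn8. The tested germ cell markers summed to 0.498 to 2.75 CPM in FFA2 fl/fl and to 2.98 to 119 CPM in Adipoq-F2-KO libraries. Over all 17039 tested genes, edgeR called 1.02% at an adjusted p under 0.05, 0.798% higher and 0.217% lower in Adipoq-F2-KO. The labels number the samples within a genotype without saying that each is 1 mouse, so p-values measure the spread between these samples.

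Of the 40 members, all of which passed the filter on low counts, 3 (7.5%) were called higher in Adipoq-F2-KO adipocytes and 0 lower, beside backgrounds of 0.798% and 0.217% of all tested genes. The 3 called were the Ifi200 genes Ifi204, Ifi205 and Ifi211. At an unadjusted p under 0.05, 12 members (30%) were higher, where the background was 10.5%, and 0 were lower, where it was 7.37%. In 8 members (20%) the libraries of both genotypes did not overlap and were higher in Adipoq-F2-KO (background 8.86%), and 0 were lower without overlap (background 8.72%). On the same counts, DESeq2 called 8 members higher and 0 lower (background 3.83% higher), adding Ifi207, Ifi47, Irgm1, Irf8 and Trim25, and limma voom called Ifi211 alone (background 0.974% higher). With a looser filter of at least 1 count in any library, edgeR called 13 members higher (background 3.76%), the 5 Ifi200 genes, the GTPases Gbp5, Ifi47, Iigp1 and Irgm1, the factors Irf8 and Irf9, and the type I genes Ifitm3 and Trim25. The log2 fold change was above 0 in 28 and below 0 in 12 members, with a median of 0.22 beside 0.00365 over all tested genes. The class medians were 1.24 for the Ifi200 genes, 0.41 for the GTPases, 0.34 for the regulatory factors and 0.09 for the type I genes. These shares and medians describe lists that were chosen with earlier results of these data known, and a difference between classes was not tested.

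**Figure D1:**
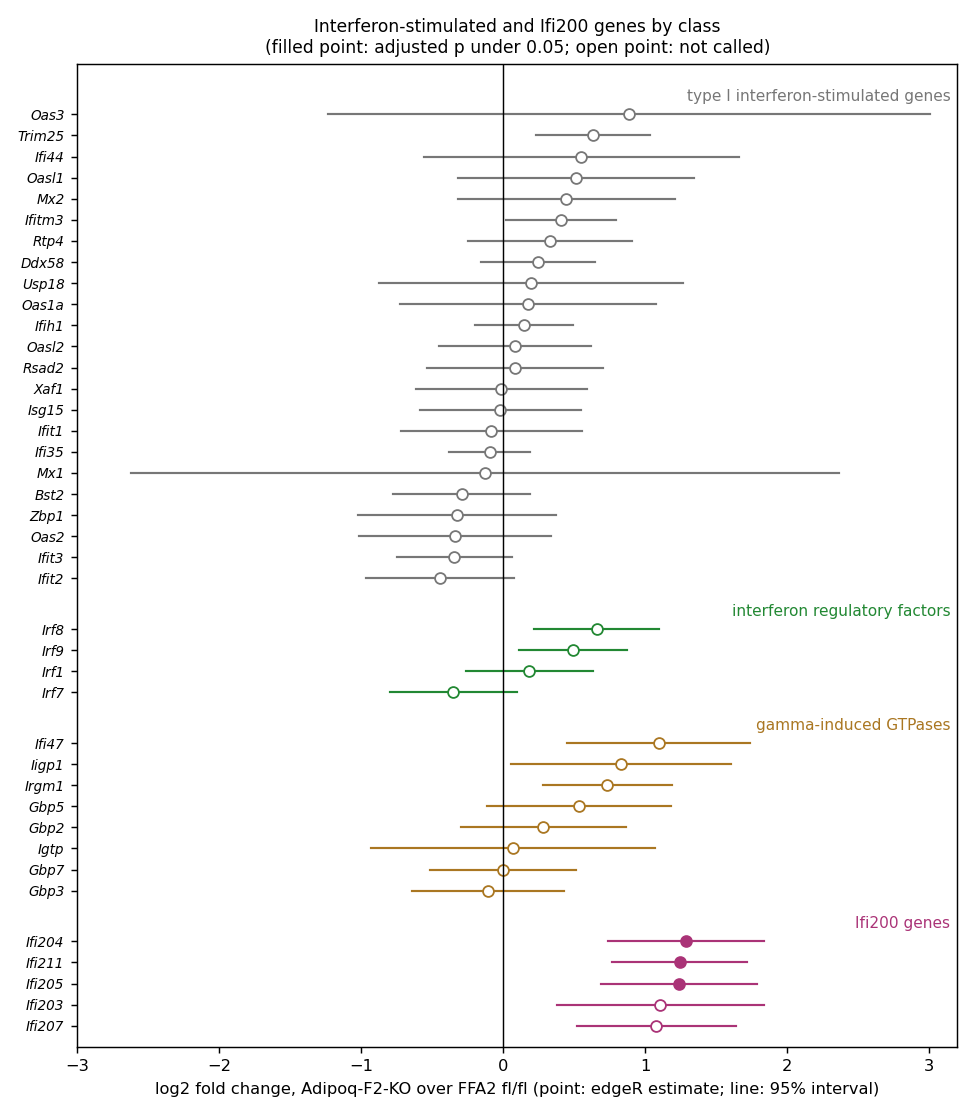
Log2 fold change of each of the 40 members, Adipoq-F2-KO (n = 4) over FFA2 fl/fl (n = 3), by class, with edgeR's estimate as a point and its 95% interval as a line. The 5 Ifi200 genes lie between 1.08 and 1.29 and only Ifi204, Ifi205 and Ifi211 are filled (adjusted p under 0.05), while the type I genes spread on both sides of 0, from -0.44 to 0.88.

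All 5 Ifi200 members separated the genotypes, their lowest Adipoq-F2-KO value exceeding their highest FFA2 fl/fl value (background 8.86% of all tested genes). They lie together on chromosome 1, within 308 kb between 173550993 and 173859376 as the deposited table gives the positions, all on the minus strand. Ifi204, whose protein senses DNA and regulates transcription in mouse macrophages (chromosome 1, 173574859 to 173594509), stood at 10.9, 12.1 and 11.7 CPM in FFA2 fl/fl libraries 1 to 3 and at 15.9, 33.05, 25.1 and 39.04 CPM in Adipoq-F2-KO libraries 1 to 4. The controls lay close together, and the Adipoq-F2-KO libraries spread from just above them in library 1 to their maximum in library 4. The mean was 11.6 ± 0.618 CPM (SD, n = 3) against 28.3 ± 10.04 CPM (SD, n = 4). The fold was 2.44, with a log2 fold change of 1.29 (SE 0.249, 95% interval 0.74 to 1.83) and an edgeR adjusted p of 0.0416. Ifi211, a family member of less settled function (chromosome 1, 173723911 to 173740612), was measured at 11.6, 11.4 and 10.4 CPM in the controls and 17.1, 25.7, 25.4 and 37.3 CPM in Adipoq-F2-KO libraries. Its order of libraries was like that of Ifi204, with library 1 lowest and library 4 highest among the Adipoq-F2-KO mice. It rose 2.37-fold (1.24, SE 0.216, interval 0.77 to 1.72, edgeR adjusted p = 0.0379), the smallest adjusted p of the 40 members.

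Ifi205, known from work on inflammasome regulation in macrophages (chromosome 1, 173839564 to 173859376), had 8.65, 10.6 and 11.5 CPM in the controls and 15.9, 23.1, 20.6 and 37.2 CPM in Adipoq-F2-KO libraries. It rose 2.36-fold (1.24, SE 0.2497, interval 0.69 to 1.79, edgeR adjusted p = 0.0475), and here too library 4 was highest. Ifi207 (chromosome 1, 173550993 to 173569313) was the most abundant Ifi200 transcript, at 19.1 CPM per kilobase over all 7 libraries where the other 4 had 2.75 to 11.1. Its levels were 28.999, 43.4 and 47.2 CPM in the controls and 58.3, 85.7, 65.7 and 128 CPM in Adipoq-F2-KO libraries. The groups did not overlap, and the log2 fold change of 1.08 (SE 0.254) did not pass the threshold in edgeR (adjusted p = 0.0668). Ifi203 (chromosome 1, 173747973 to 173770238) varied most within groups, with 11.5, 14.6 and 7.21 CPM in the controls and 15.2, 20.9, 18.4 and 41.5 CPM in Adipoq-F2-KO libraries. Control library 2 and Adipoq-F2-KO library 1 nearly met, and library 4 stood far above the other 3 (log2 fold change 1.11, SE 0.332, edgeR adjusted p = 0.125).

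**Figure D2:**
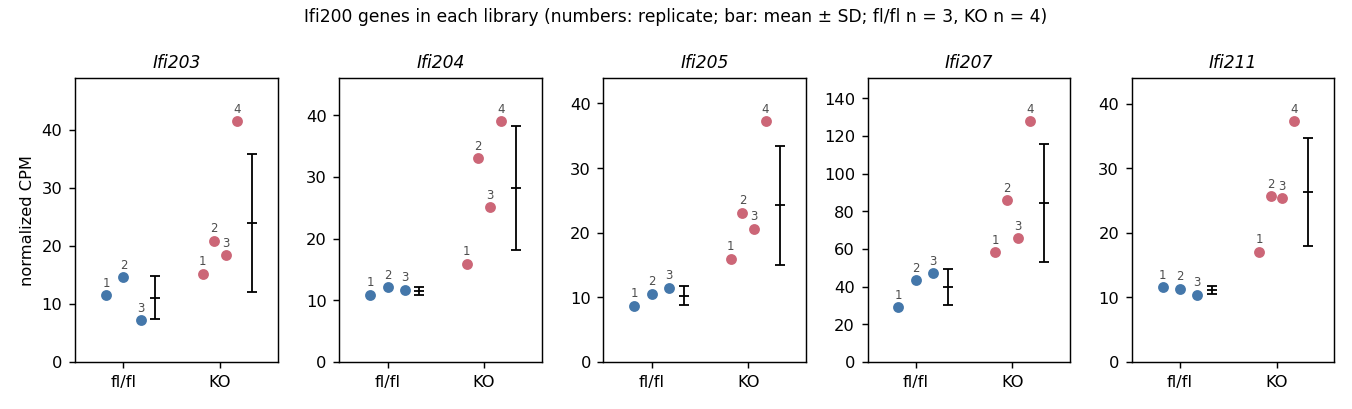
Normalized CPM of the 5 Ifi200 genes in each library, with the replicate number at each point and the mean ± SD beside each group (fl/fl n = 3, KO n = 4). In each panel the Adipoq-F2-KO points lie above all FFA2 fl/fl points, and library 4 is highest.

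The calls of Ifi204, Ifi205 and Ifi211 were lost when single libraries were left out, along with most calls over all genes. Without FFA2 fl/fl library 1, 2 or 3, 0 members and 1, 41 and 5 of all genes were called, and without Adipoq-F2-KO library 2 or 3, 0 members and 11 and 20 of all genes, where the full set of libraries gave 173. Without Adipoq-F2-KO library 1, 5 members (these 3, Ifi207 and Irgm1) and 178 genes were called, and without library 4 the same 3 members and 166 genes. Their fold changes moved less than their calls, since Ifi204 stayed between 1.09 and 1.49, Ifi205 between 0.95 and 1.39 and Ifi211 between 1.03 and 1.4 over the 7 fits with 1 library left out, with edgeR adjusted p between 0.0101 and 0.241. With Adipoq-F2-KO libraries 2 and 4 both left out, the log2 fold changes were 0.83, 0.84 and 0.94, and 0 members and 36 of all genes were called. Without library 4 alone, Ifi203 fell to 0.71 and Ifi207 to 0.81. The Ifi200 genes resemble each other, which can divide reads among them: of the 100-base stretches of its transcripts in the GENCODE M21 annotation, Ifi211 shares 56.9% with another gene (37.2% with Ifi205), Ifi205 15%, Ifi204 10.7%, Ifi203 2.84% and Ifi207 0.79%. Of the other 7 genes of the cluster, 3 passed the filter on low counts and 0 were called by the main edgeR fit or DESeq2. Of these, 1 (Mndal) was higher at an unadjusted p under 0.05 (background 10.5%), and it was called in 1 of 16 alternatives. Mndal had 10.4, 12.9 and 12.04 CPM in the controls and 13.97, 17.98, 14.7 and 26.3 CPM in Adipoq-F2-KO libraries, without overlap (0.63, SE 0.209, edgeR adjusted p = 0.156, 0.40 without library 4), Ifi209 had a log2 fold change of 0.62 (SE 0.62998) and Ifi208 of 0.18 (SE 0.755), both from at most 56 counts a library. Ifi202b had 0 counts in all libraries, and Ifi206, Ifi213 and Ifi214 had at most 26.

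Among the 8 GTPases, 7 had a log2 fold change above 0 and 1 below. The main edgeR fit called 0 and DESeq2 called 2, Ifi47 and Irgm1 (background 3.83% higher). At an unadjusted p under 0.05, 3 were higher (background 10.5%) and 0 lower (background 7.37%). Ifi47, an immunity-related GTPase (IRGD; chromosome 11, 48967414 to 48987801), had 5.66, 3.02 and 3.603 CPM in the controls and 7.07, 7.11, 7.38 and 13.5 CPM in Adipoq-F2-KO libraries. Here the groups did not overlap, and Adipoq-F2-KO libraries 1 to 3 were nearly equal with library 4 far above them. The log2 fold change was 1.09 (SE 0.293, interval 0.45 to 1.74, edgeR adjusted p = 0.09805), and without library 4 it was 0.81. Irgm1, a regulator of the other immunity-related GTPases, had 44.6, 45.6 and 39.7 CPM in the controls and 45.2, 86.8, 63.1 and 93.4 CPM in Adipoq-F2-KO libraries. Adipoq-F2-KO library 1 lay inside the control range and the other 3 above it (0.73, SE 0.207, edgeR adjusted p = 0.1096), and the value was 0.33 without libraries 2 and 4. Iigp1, which attacks the vacuoles of intracellular parasites, had 124, 84.1 and 59.2 CPM against 87.8, 126, 137 and 284 CPM, with overlap (0.83, SE 0.352, edgeR adjusted p = 0.2502, 0.39 without library 4).

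The class also holds Igtp and 4 guanylate-binding proteins. Gbp2 had the highest level of the class, 53.9 CPM per kilobase, with 174, 107 and 81.05 CPM in the controls and 93.5, 141, 153 and 199.6 CPM in Adipoq-F2-KO libraries. The groups overlapped over most of their range (0.28, SE 0.265, edgeR adjusted p = 0.614, and 0.079 to 0.64 with 1 library left out). Gbp3, the lowest of the class in fold change, had 49.3, 25.1 and 25.5 CPM against 23.4, 38.6, 26.3 and 35.4 CPM (-0.11, SE 0.245), and control library 1 was the highest of all 7. Gbp5, which promotes inflammasome assembly, had a log2 fold change of 0.53 (SE 0.295; 0.16 without Adipoq-F2-KO libraries 2 and 4) and Gbp7 of 0.0015 (SE 0.234). Igtp (also called Irgm3) had 48.8, 19.3 and 13.4 CPM in the controls and 13.5, 25.7, 23.5 and 51.9 CPM in Adipoq-F2-KO libraries. Library 1 of the controls and library 4 of the Adipoq-F2-KO mice stood together, far above the other 5, and the log2 fold change of 0.071 (SE 0.456) became 0.80 without the former and -0.38 without the latter. The same control library was highest among the controls for 7 of the 8 GTPases, all but Irgm1. Control library 1 also had the highest sum of mesothelial markers, 25.9 CPM where the other libraries had 7.52 to 10.99 CPM. Krt19 alone gave 18.7 CPM of this sum, and of the list only Krt19 and Upk1b were highest in that library. The same library had the fewest erythroid markers, 97.6 CPM. The part of this in the GTPase levels was not tested. With 1 library left out, the class median lay between 0.17 without control library 3 and 0.76 without control library 1, and it was 0.10 without Adipoq-F2-KO libraries 2 and 4.

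In the wider list of 13 immunity GTPases, all were tested and 0 were called by the main edgeR fit or DESeq2. At an unadjusted p under 0.05, 2 were higher (background 10.5%) and 0 lower (background 7.37%). Irgc1 had the largest fold change, 4.59 (SE 1.398), with 0, 0.0504 and 0.234 CPM in the controls and 0.401, 7.898, 0.387 and 0.543 CPM in Adipoq-F2-KO libraries. The groups did not overlap, and library 2, which had the most germ cell transcripts, stood far above the other 3, whose levels rest on 14 to 16 counts each. Gbp9 followed with 30.8, 19.3 and 13.1 CPM in the controls and 26.5, 38.4, 30.6 and 59.1 CPM in Adipoq-F2-KO libraries (0.87, SE 0.304, edgeR adjusted p = 0.173). Gbp10 was the lowest, at -1.32 (SE 0.634), with 17.01, 2.24 and 1.904 CPM in the controls, where library 1 stood far above every other library, and 1.73, 2.86, 3.32 and 3.46 CPM in Adipoq-F2-KO libraries.

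Of the 4 interferon regulatory factors, 0 were called by the main edgeR fit and 1 (Irf8) by DESeq2 (background 3.83% higher). At an unadjusted p under 0.05, 2 were higher (background 10.5%) and 0 lower (background 7.37%). Irf8, a factor of the macrophage and dendritic lineages, had 24.6, 36.6 and 26.2 CPM in the controls and 31.8, 41.98, 54.8 and 55.6 CPM in Adipoq-F2-KO libraries. Only control library 2 and Adipoq-F2-KO library 1 crossed (0.66, SE 0.2004, edgeR adjusted p = 0.1298). Irf9, the DNA-binding part of the type I interferon complex, had 21.7, 20.2 and 16.1 CPM in the controls and 22.4, 24.7, 25.3 and 36.3 CPM in Adipoq-F2-KO libraries. Its groups did not overlap, by a narrow margin between control library 1 and Adipoq-F2-KO library 1 (0.49, SE 0.173, edgeR adjusted p = 0.178, 0.32 without library 4). Irf1, the factor raised by interferon gamma, was the most abundant of them at 114 CPM per kilobase. It had 328, 593 and 344 CPM in the controls and 432, 573, 529 and 382 CPM in Adipoq-F2-KO libraries, all within the control range (0.19, SE 0.205, and 0.032 to 0.51 with 1 library left out). Irf7, which amplifies type I interferon production, was the only member of the class below 0. It had 39.7, 25.6 and 29.6 CPM in the controls and 16.9, 24.8, 25.4 and 32.4 CPM in Adipoq-F2-KO libraries (-0.35, SE 0.204, interval -0.80 to 0.097, and -0.50 to -0.15 with 1 library left out). An antisense gene, Gm17334, overlaps 20% of the exon length of Irf1 by the exon positions deposited with the counts, and reads from the pair may not be separable.

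Of the 23 type I genes, 13 lay above 0 and 10 below. The main edgeR fit called 0 of them and DESeq2 called 1, Trim25 (background 3.83% higher). At an unadjusted p under 0.05, 2 were higher (background 10.5%) and 0 lower (background 7.37%). Isg15, Ifit1 and Rsad2, often used as markers of the type I response, were chosen for mention after their values were seen. Isg15, a ubiquitin-like modifier, had 10.1, 6.45 and 6.27 CPM in the controls and 4.52, 7.84, 9.07 and 8.68 CPM in Adipoq-F2-KO libraries, and the log2 fold change was -0.019 (SE 0.258, interval -0.58 to 0.55). Ifit1, which binds foreign RNA caps, had 11.3, 6.603 and 6.56 CPM against 4.31, 8.57, 7.47 and 10.5 CPM (-0.082, SE 0.289, interval -0.72 to 0.55). Control library 1 was the highest of the 7 for both genes and Adipoq-F2-KO library 1 the lowest. Rsad2, which makes the antiviral nucleotide ddhCTP, had 17.8, 13.2 and 9.67 CPM against 10.6, 15.7, 9.403 and 21.8 CPM (0.083, SE 0.283, interval -0.54 to 0.70). The intervals of these 3 genes reach 0.55 to 0.70 upward and -0.54 to -0.72 downward, so smaller changes were not detectable with these libraries.

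**Figure D3:**
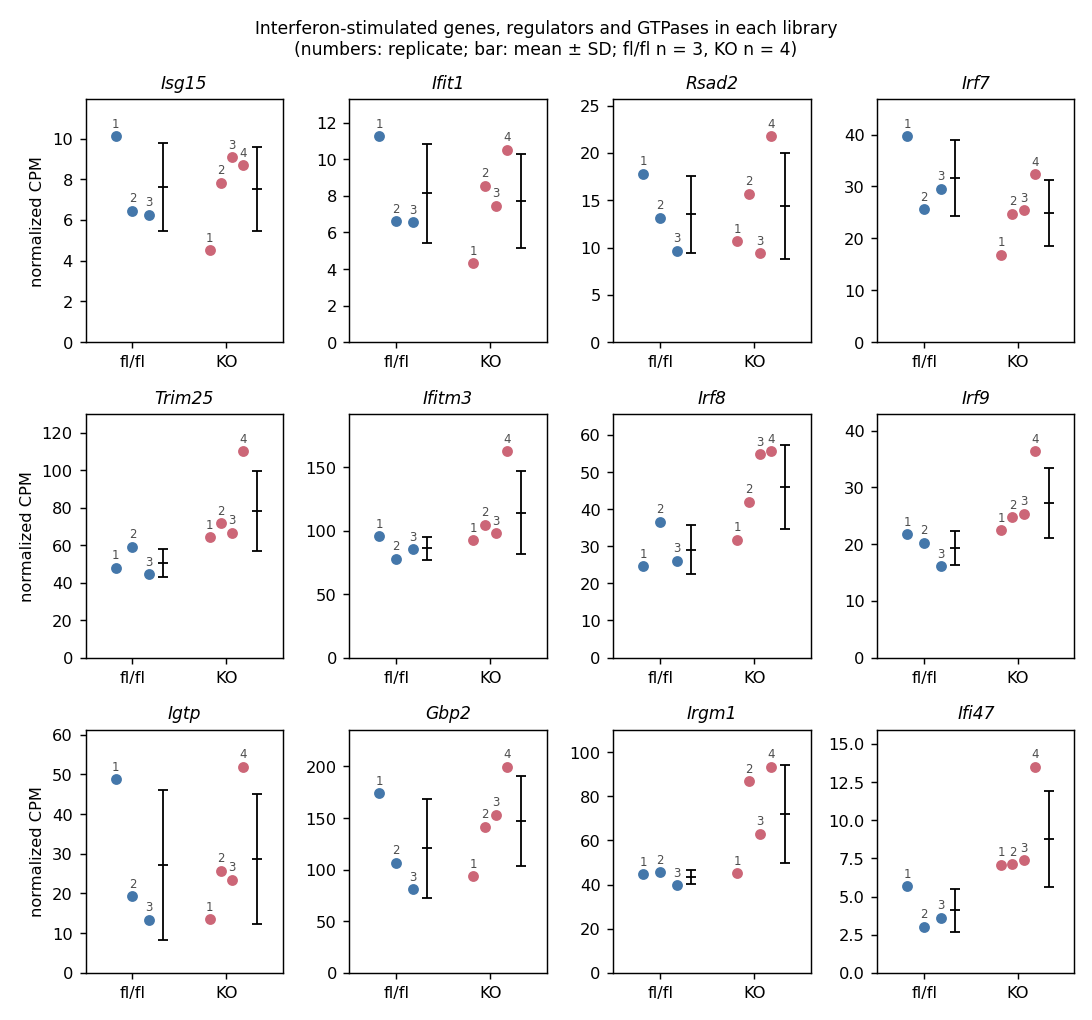
Normalized CPM of 12 members in each library, with the replicate number at each point and the mean ± SD beside each group (fl/fl n = 3, KO n = 4). FFA2 fl/fl library 1 is the highest control for Isg15, Ifit1, Rsad2, Irf7, Igtp and Gbp2, and Adipoq-F2-KO library 4 stands apart for Trim25 and Ifi47.

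Trim25, a ubiquitin ligase of the RIG-I pathway (chromosome 11, 88890202 to 88911119), was the type I class member with the smallest p. It had 47.8, 59.05 and 44.3 CPM in the controls and 64.2, 71.7, 66.4 and 109.9 CPM in Adipoq-F2-KO libraries. The groups did not overlap (0.63, SE 0.183, interval 0.23 to 1.03, edgeR adjusted p = 0.117), and without Adipoq-F2-KO library 4 the value was 0.42. Ifitm3, which blocks virus entry at endosomes, had the highest level of all 40 members, 151 CPM per kilobase. Its 95.4, 77.6 and 85.4 CPM in the controls met 92.2, 105, 97.8 and 162 CPM in Adipoq-F2-KO libraries, where library 4 alone was far above the controls (0.41, SE 0.178, edgeR adjusted p = 0.262, 0.19 without library 4). Ifit2 was the lowest of the class, with 10.6, 7.11 and 6.03 CPM in the controls and 4.26, 7.11, 5.48 and 6.44 CPM in Adipoq-F2-KO libraries (-0.44, SE 0.237, interval -0.96 to 0.076, and -0.59 to -0.18 with 1 library left out). Oas3 had the largest fold change of the class, 0.88 (SE 0.966), at 0.374, 0.403 and 0 CPM in the controls and 0.502, 0.486, 0.277 and 0.678 CPM in Adipoq-F2-KO libraries. These levels lie near the limit of 0.15 to 0.197 CPM (3 fragments, or 6 counts) that a count of 0 allows, and the interval of -1.24 to 3.0 covers no change as well as large changes in either direction. Mx1 was as scarce, with 0.694, 0 and 0.293 CPM in the controls and 0.201, 0.547, 0.0553 and 0.407 CPM in Adipoq-F2-KO libraries (-0.13, SE 1.14).

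The other type I genes lay on both sides of 0, and none of them had an unadjusted p under 0.05. Ifit3 had a log2 fold change of -0.34 (SE 0.184), of the same sign as Ifit1 and Ifit2, and shares 31.7% of its 100-base stretches with its copy Ifit3b. Among the oligoadenylate synthetases, which activate RNase L, Oas1a was at 0.17 (SE 0.412), with 40.9% of its stretches shared with Oas1g, Oas2 at -0.34 (SE 0.308, and -0.54 to -0.0078 with 1 library left out), Oasl1 at 0.51 (SE 0.379, and 0.12 without Adipoq-F2-KO library 4) and Oasl2 at 0.085 (SE 0.244). The cytosolic RNA sensors Ddx58 (RIG-I) and Ifih1 (MDA5) were at 0.25 (SE 0.183, and 0.08 to 0.35 with 1 library left out) and 0.15 (SE 0.157, and 0.015 to 0.26 with 1 library left out). Usp18, which removes ISG15 and restrains the type I receptor, was at 0.20 (SE 0.487), and Zbp1, a sensor of Z-form nucleic acids, at -0.32 (SE 0.318). Bst2 (tetherin) was at -0.29 (SE 0.2195, and -0.50 to -0.023 with 1 library left out), Ifi35 at -0.094 (SE 0.1305), Xaf1 at -0.011 (SE 0.275), Rtp4 at 0.33 (SE 0.265), Mx2 at 0.45 (SE 0.349) and Ifi44 at 0.55 (SE 0.505). The class median changed sign with the libraries, from -0.09 without Adipoq-F2-KO library 4 and -0.09 without control library 3 to 0.30 without control library 1, and it was -0.13 without Adipoq-F2-KO libraries 2 and 4.

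The rest of the pathway was read from 7 lists of other genes, 132 in all with the GTPases and Ifi200 genes above. Of these, 102 were tested, 0 were called by the main edgeR fit, and 18 were higher (background 10.5%) and 4 lower (background 7.37%) at an unadjusted p under 0.05. DESeq2 called 8 of them higher (background 3.83%), Jak1, Jak2, Stat3, Irf5, Tmem173, Ptpn2, Slfn2 and Slfn5, and 0 lower, and limma voom called Slfn2 alone. Some pathway genes were followed through 16 alternatives. Slfn2 was called in 7 of these, Jak2 in 5, Ptpn2 in 4, Cxcl9, Cxcl10 and Tmem173 in 2 each, Mndal in 1 and Ifit3b in 0. Interferon transcripts themselves were at the limit of detection. Of 21 ligand genes, 16 had 0 counts in all 7 libraries, and no library held more than 12 counts of any of them. Ifng had 2 counts in control library 3 and 12 in Adipoq-F2-KO library 4, Ifnb1 had 10 in Adipoq-F2-KO library 3, and Ifna7 and Ifna2 had 8 and 4 in Adipoq-F2-KO library 4. With both mates of a read pair counted, the largest of these values stands for 6 fragments, and no difference in ligand level was detectable at this depth.

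Of 12 receptor, kinase and STAT genes, 11 were tested and 7 lay above 0, with 4 higher at an unadjusted p under 0.05 (background 10.5%). Jak2, the kinase of the interferon gamma receptor, had the largest fold change, with 52.7, 56.8 and 55.5 CPM in the controls and 75.4, 94.3, 90.1 and 172 CPM in Adipoq-F2-KO libraries. The groups did not overlap (0.97, SE 0.233, edgeR adjusted p = 0.0696), and without library 4 the value was 0.66 (edgeR adjusted p = 0.0219). It passed the threshold in 2 of the 7 fits with 1 library left out, where the adjusted p ran from 0.0219 to 0.267. Jak1 and Stat3 did not overlap either, at 0.35 (SE 0.1101) and 0.39 (SE 0.1096). Ifngr1 was the lowest of this list at -0.29 (SE 0.139). Among 15 sensors and adaptors, 12 lay above 0, with 3 higher and 1 lower at an unadjusted p under 0.05 (backgrounds 10.5% and 7.37%). Tlr9, an endosomal DNA receptor, had the largest fold change, 1.2 (SE 0.577), at 0.694, 1.71 and 0.293 CPM in the controls and 2.21, 1.88, 1.05 and 3.19 CPM in Adipoq-F2-KO libraries, where the groups overlapped. The lowest was Mavs, the adaptor of RIG-I and MDA5. It had 59.9, 62.3 and 62.7 CPM against 54.9, 54.1, 50.1 and 47.2 CPM and was lower in all Adipoq-F2-KO libraries (-0.26, SE 0.0894, edgeR adjusted p = 0.171). Tmem173 (STING), the adaptor of the DNA sensor cGAS, was at 0.79 (SE 0.267) and at 0.49 without library 4.

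Of 11 genes in the list of negative regulators, which also holds the interferon-stimulated gene Isg20, 10 were tested and 9 lay above 0. Ptpn2, a phosphatase that acts on JAK kinases, had 16.2, 21.5 and 21.03 CPM in the controls and 24.6, 31.9, 33.4 and 32.4 CPM in Adipoq-F2-KO libraries, without overlap (0.64, SE 0.143, edgeR adjusted p = 0.0577), and Isg20 was the lowest at -0.26 (SE 0.1401). The 53 other interferon-stimulated genes, 50 of them tested, gave the broadest view of the response. Of these, 26 lay above 0 and 24 below, with a median of 0.01. At an unadjusted p under 0.05, 5 were higher (background 10.5%) and 3 lower (background 7.37%). Slfn2, a schlafen gene of T cells and macrophages, had the largest fold change, 12.04, 15.5 and 10.3 CPM in the controls and 20.2, 28.5, 23.3 and 18.9 CPM in Adipoq-F2-KO libraries (0.85, SE 0.179, edgeR adjusted p = 0.0519). It passed the threshold in 1 of the 7 fits with 1 library left out, that without Adipoq-F2-KO library 4, and the edgeR adjusted p ran from 0.0409 to 0.248. Ifit1bl1 had the smallest at -1.06 (SE 0.968), from under 1 CPM in every library. Ifit3b and Trim21 had lower values with FFA2 deleted and no overlap with the controls, at -0.62 (SE 0.261) and -0.43 (SE 0.187). The interferon-induced chemokines Cxcl9 and Cxcl10, chosen for mention after their values were seen, were at 0.73 (SE 0.235, edgeR adjusted p = 0.146) and 0.64 (SE 0.212, edgeR adjusted p = 0.156). For both the groups overlapped, and with 1 library left out Cxcl9 ran from 0.55 to 1.05 and Cxcl10 from 0.42 to 0.94. The proteasome and peptide transport genes Psmb8, Psmb9 and Tap1 were at -0.19, -0.42 and 0.19 (SE 0.218, 0.222 and 0.227).

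Levels summed over a class placed the libraries as follows. The Ifi200 genes came to 71.6 to 92.0 CPM in the controls and to 122 to 283 CPM in Adipoq-F2-KO libraries. The GTPases came to 262 to 532 CPM against 322 to 770 CPM, the regulatory factors to 414 to 675 CPM against 503 to 665 CPM, and the type I genes to 302 to 389 CPM against 313 to 515 CPM, with overlap in these 3 classes. Markers of some other cell types also differed between the genotypes, and those of others overlapped. Dendritic markers summed to 42.7 to 51.6 CPM in the controls against 40.7 to 54.9 CPM in Adipoq-F2-KO libraries, with overlap. B cell markers came to 555 to 694 CPM against 327 to 686 CPM and mesothelial markers to 9.87 to 25.9 CPM against 7.52 to 10.99 CPM, also with overlap. The tested neutrophil markers split, with Mmp9 at 0.79 and S100a8 at -0.18. The 14 macrophage markers summed to 627 to 746 CPM in the controls and to 829 to 1020 CPM in Adipoq-F2-KO libraries, and 12 of the 14 lay above 0, 10 of them at an unadjusted p under 0.05 and 2, Cd68 and Lyz2, called by edgeR (log2 fold changes 0.72 and 0.69, adjusted p = 0.0416 and 0.0382). The other 2, Mertk at -0.42 and Cd163 at -0.12, lay below 0, Mertk at an unadjusted p under 0.05. The 10 endothelial markers came to 1027 to 1370 CPM against 1449 to 2316 CPM, all 10 above 0, and the 10 fibroblast progenitor markers to 906 to 1200 CPM against 1288 to 1582 CPM, 9 of 10 above 0. As a mean log2 level relative to the controls, the fibroblast progenitor markers overlapped, at -0.14 to 0.13 against 0.06 to 0.85. All 10 adipocyte markers lay below 0, with a median of -0.32. The 5 tested erythroid markers all lay above 0 (median 0.59), with summed levels of 97.6 to 223 CPM against 209 to 372 CPM. T and NK cells are the usual sources of interferon gamma. Of their markers, the 3 tested for T cells lay below 0 and summed to 1.17 to 2.67 CPM in the controls and 0.608 to 2.05 CPM in Adipoq-F2-KO libraries, and the 3 tested for NK cells lay above 0 (median 1.12) at 0.454 to 1.23 CPM against 0.853 to 2.17 CPM, with 0 of these 6 genes at an unadjusted p under 0.05. The defining T cell markers Cd3d, Cd3e and Cd3g had at most 32 counts in any library and did not pass the filter on low counts, and all 3 had 0 counts in Adipoq-F2-KO library 2. The part of these cell types in the differences of the members was not tested, and in bulk libraries fewer adipocytes and less RNA per adipocyte cannot be told apart.

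**Figure D4:**
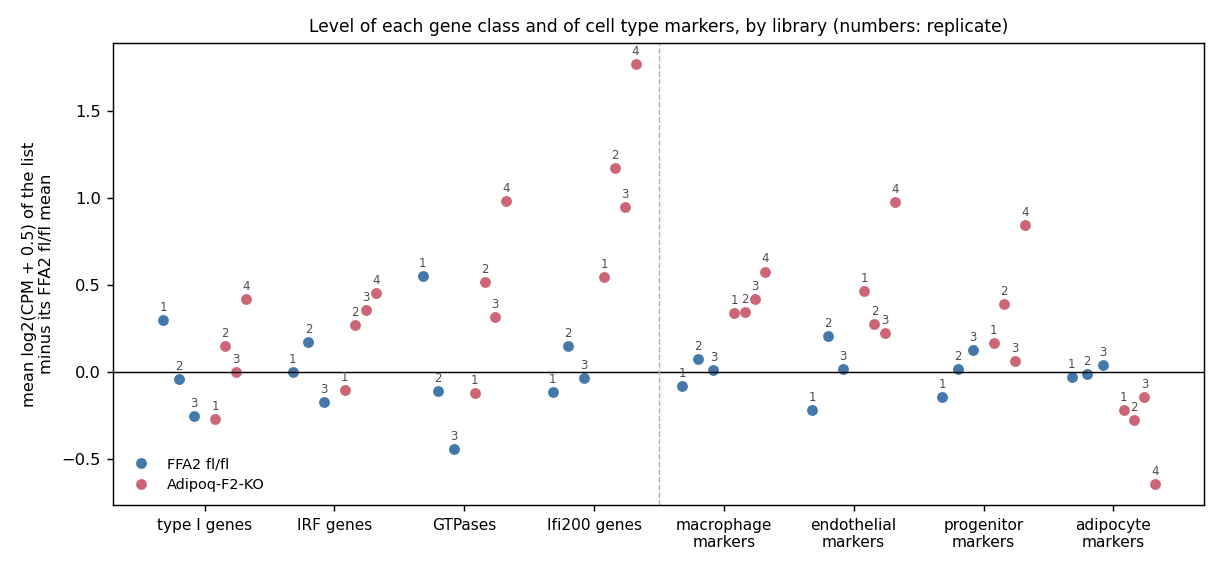
Mean log2(CPM + 0.5) over the genes of each list, minus the FFA2 fl/fl mean of that list, in each library (numbers: replicate), for the 4 member classes on the left and markers of 4 cell types on the right. The Ifi200 genes separate the genotypes (0.55 to 1.77 against -0.11 to 0.15), as do the macrophage markers (0.34 to 0.58 against -0.08 to 0.07), the endothelial markers (0.22 to 0.98 against -0.22 to 0.20) and, downward, the adipocyte markers, and the other 3 member classes overlap.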

How the data were processed

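Gene counts of 7 adipocyte libraries were analysed, 3 of FFA2 fl/fl and 4 of Adipoq-F2-KO mice, grouped by the genotype and number in the sample labels. The authors used Trimmomatic for trimming, STAR for alignment and featureCounts for counting reads over genes. They deposited whole-number counts that had not been normalized. Versions and options, strand and treatment of overlapping genes included, are not given in the sources used here. Most low counts were even (85.5% to 88.8% of counts of 1 to 49), so both mates of a pair appear to have been counted, and 6 counts are taken as 3 fragments. The submitters' notes name GRCm38, but only 1 of the 40 members had its GRCm38 start in the table. Gene positions are therefore printed as deposited, and exon overlaps were taken from them. GRCm38 annotation (GENCODE M21) served for names and shared stretches. Names were matched for 52029 of 57010 identifiers. Promoters came from RefSeq windows of GRCm38.p6, which were not used for the other 8 members.

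Counts were filtered with filterByExpr, scaled by TMM (factors 0.968 to 1.02) and compared by the two-sided quasi-likelihood test of edgeR 4.0.16 (R 4.3.3). Genotype was the only term, and Benjamini-Hochberg adjustment covered 17039 genes. A gene was called at an adjusted p under 0.05. Errors of log2 fold changes are SEs from the fit, and CPM are TMM-normalized. The common biological coefficient of variation was 0.258. Pairs of libraries of the same genotype differed by more than counting noise (ratio of chi-square to degrees of freedom, 41.5 to 165). The scripts were tested on simulated data. Alternatives were DESeq2 1.42.0, limma 3.58.1 voom, other scalings and filters, counts divided by 2, libraries left out, and a replicate block. Same-numbered libraries did not deviate together (correlations 0.0315, -0.0242 and -0.0203), so no block was used. The exact permutation test of 3 against 4 libraries cannot go below 0.0286 and was not used.

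The members and all lists were chosen with earlier results of these data known. Values in every library are given for called members, for the largest and smallest fold change and the highest level per kilobase of each class, and for members without overlap at an unadjusted p under 0.05. Isg15, Ifit1, Rsad2, Igtp, Irgm1, Iigp1, Mx1 and the pathway genes other than the extremes of each list were added after their values were seen. Values of 1 gene of the pathway lists are not reported here.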

Additional observations from a re-analysis of the deposited data

Results flagged for a closer look

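In the group of 4 Adipoq-F2-KO libraries, the highest and lowest library of each of 41 genes (the 40 members and Ffar2) were compared with the others by Dixon's ratio of gap to range against its 95% critical value. For Ifi47 the highest library, number 4, had 13.5 CPM where the nearest had 7.38 CPM, a ratio of 0.952. For Trim25 the same library had 109.9 CPM and the nearest 71.7 CPM, a ratio of 0.836. Chance passes this value in about 1 of 20 groups, and only Ifi47 and Trim25 of the 41 genes passed it, which is near that rate. The group of 3 FFA2 fl/fl libraries is too small for this comparison. Library 4 is also the library with the lowest adipocyte and highest endothelial markers, and the part of this in both values was not tested.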

How the results depend on the processing

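The main count was 173 genes called, 3 of them members. DESeq2 called 888 genes and 8 members, a filter of at least 1 count in any library called 1403 genes and 13 members, and limma voom called 208 genes and 1 member. Leaving out 1 library at a time gave 1 to 178 genes and 0 to 5 members. With Adipoq-F2-KO libraries 2 and 4 both left out, an alternative chosen after seeing the data, 36 genes and 0 members were called. The other scalings, counts divided by 2, and the fit without mitochondrial genes and ENSMUSG00000119584 called the same 3 members. Class medians moved by less than the pooled SD between libraries of a genotype under each alternative, although the type I median changed sign. For the Ifi200 genes this SD was wide, at 0.405 on the log2 scale. With Adipoq-F2-KO libraries 2 and 4 left out, Ifi204 fell from 1.29 to 0.83.

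Log2 fold changes of some uncalled genes changed sign. With all libraries most of these lay near 0, but Ifi44, Mx2, Rtp4 and Zbp1 were at 0.55, 0.45, 0.33 and -0.32. With Adipoq-F2-KO libraries 2 and 4 left out they were -0.068 for Ddx58, -0.13 for Ifih1, -0.026 for Mx2, -0.049 for Rtp4, -0.072 for Ifi44, -0.26 for Oasl2, -0.43 for Rsad2, -0.29 for Usp18, -0.54 for Igtp and -0.26 for Gbp7. Gbp7 was at -0.026 scaled by total counts and at -0.0032 with at least 1 count. Limma voom put Mx1 at 0.82 and Xaf1 at 0.047. With 1 library left out at a time, values ran for Gbp3 from -0.28 to 0.29, Gbp7 from -0.20 to 0.36, Ifit1 from -0.27 to 0.22, Igtp from -0.38 to 0.80, Isg15 from -0.13 to 0.24, Mx1 from -0.71 to 1.04, Oas1a from -0.043 to 0.41, Oasl2 from -0.10 to 0.30, Rsad2 from -0.19 to 0.33, Usp18 from -0.23 to 0.65, Xaf1 from -0.29 to 0.29 and Zbp1 from -0.56 to 0.087. Without a change of sign, values ran for Gbp5 from 0.26 to 0.77, Iigp1 from 0.39 to 1.14, Ifi203 from 0.71 to 1.35, Ifi35 from -0.15 to -0.023, Ifi44 from 0.066 to 0.82, Ifit3 from -0.51 to -0.22, Ifitm3 from 0.19 to 0.50, Mx2 from 0.22 to 0.84, Oas3 from 0.33 to 1.34, Oasl1 from 0.12 to 0.68 and Rtp4 from 0.041 to 0.49. The cause of these changes was not tested. No Ifi200 gene, and none of Ifi47, Irgm1, Iigp1, Irf8, Irf9, Trim25 and Ifitm3, changed sign under any of these alternatives.

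The replicate number as a block, over replicates 1 to 3 of both genotypes, gave 223 genes called and 4 members, Ifi204, Ifi205, Ifi207 and Ifi211. With this replicate block Gbp7 was at -0.089, Ifi44 at -0.0026, Igtp at -0.19, Oasl2 at -0.082, Rsad2 at -0.18, Usp18 at -0.17 and Xaf1 at 0.032, all uncalled. The numbers mark no shared animal, litter or day in the labels. Scarce genes such as Oas3, Mx1 and the interferon ligands were limited by depth.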
